A study of Mus musculus with 3 samples.

Results

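The clustered protocadherin genes were taken as every row of the deposited gene table whose symbol names a member of the *Pcdha*, *Pcdhb* or *Pcdhg* clusters. This gave 36 of the 18890 genes, 14 alpha and 22 gamma genes, and no row carried a beta symbol. All 36 lie on mouse chromosome 18, between 36930285 and 37841873 in mm10. Genes of a cluster share accessible regions, so their rows repeat, and the 36 rows held 7 distinct sets of values, 1 in alpha and 6 in gamma. Protocadherin rows with identical values are counted once here.

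Clustered protocadherins are cell surface adhesion proteins of the cadherin superfamily. In the alpha and gamma clusters each gene has its own promoter and its own large first exon, which is spliced to constant exons shared by the whole cluster, whereas beta genes are made of a large exon alone. Neurons, in which these genes are best known, use only a few of the promoters per cell, and the resulting set of surface proteins lets a neuron tell its own branches from those of others. CTCF and cohesin bind the promoters and loop them to distant enhancers. The C-type genes at the end of the alpha and gamma clusters are used more uniformly than the others.

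Open chromatin was profiled by ATAC-seq, which uses a transposase to cut and tag accessible DNA. The cells were organoids grown from primary basal cells of wild-type mouse prostate and cultured for 7 days with 10 µM UK5099, with 20 mM sodium lactate or with vehicle. UK5099 inhibits the mitochondrial pyruvate carrier, which imports pyruvate into mitochondria, and lactate is made from pyruvate in the cytosol. Each group held 1 library, so no difference was checked against replicates, no test was run, and the values describe these 3 libraries.

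The measurement is the average peak height of a gene, the stacked read coverage at the top of a peak averaged over all regions assigned to that gene. The heights were multiples of a step of 1 in UK5099, 0.471 in lactate and 0.575 in vehicle, which is the height of 1 stacked read. The median gene had a height of 58.7 in UK5099, 60.3 in lactate and 51.3 in vehicle, and the median over genes of the ratio was 1.15 for UK5099 over vehicle, 1.18 for lactate over vehicle and 0.983 for UK5099 over lactate. These medians are called the median gene here, and ratios are read against them as well as against 1. Ranges in parentheses after a ratio are exact conditional 95% intervals from the stacked reads, and they contain no variation between cultures. In bulk organoids a lower signal in every cell and a smaller share of cells with the signal cannot be told apart. The basal marker genes *Krt5*, *Krt14*, *Trp63* and *Itga6* had mean heights of 35.4 to 70.5, *Epcam*, which basal and luminal epithelium share, had 84.5, and the neuronal genes *Rbfox3*, *Tubb3*, *Snap25*, *Syt1*, *Map2* and *Syp* had 38.1 to 57.9, so a height by itself did not separate genes of the tissue from neuronal genes.

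Called peaks were first placed along the clusters. Peaks listed for the 36 genes fell into 12 regions, 3 in alpha and 9 in gamma. A called peak lay within 500 bp of the gene start for 6 of the 36 genes in at least 1 library, which is 16.7%, against 64.5% of all genes in the table. Every gene of the table lists at least 1 peak, and the alpha and gamma genes do so through regions shared along their cluster. How far this sets the gap between the 2 shares was not tested. The same 6 genes were found with 1000 bp, a window for which the share of all genes was 69.4%. Both windows were chosen after the positions were seen.

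The 6 genes with a peak at their start were *Pcdhac2*, *Pcdhgb6*, *Pcdhgb7*, *Pcdhgb8*, *Pcdhgc3* and *Pcdhgc4*. *Pcdhac2* is the last alpha gene and is needed in serotonergic neurons for the spacing of their axons. Its peak lay at position 37143936 in UK5099 and in lactate, -33 bp from the start, and at 37143872 in vehicle, -97 bp from the start. GENCODE M21 starts *Pcdhac2* further upstream, and the peak at 37143936 lies 433 bp after that start, in the exon. *Pcdhgc3*, whose protein binds Axin1 and dampens Wnt signalling, had a peak at 37806368 in all 3 libraries, -42 bp from its start, where GENCODE M21 also places the antisense transcript BC037039. *Pcdhgc4*, which supports the survival of inhibitory interneurons, had its peak at 37814752 in UK5099, 37814688 in lactate and 37814720 in vehicle, -327, -391 and -359 bp from the start in that order, and lactate had another call 281 bp after the start that belonged to the same region. *Pcdhgb6* also had a call in each library, at 2 bp from the start in UK5099, -14 bp in lactate and 210 bp in vehicle, negative values being upstream.

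The remaining starts carried a call in 1 library each. At equal height lactate held 2.12 times and vehicle 1.74 times the stacked reads of UK5099. Whether calls follow this depth was not tested, so a call in 1 library is not read as a difference. A peak at -163 bp from the table's start of *Pcdhgb7*, which is 16 bp after its GENCODE start, was called in lactate, and a peak at -137 bp from the start of *Pcdhgb8*, annotated as a polymorphic pseudogene, was called in UK5099. Of the 5 C-type genes, *Pcdhac2*, *Pcdhgc3* and *Pcdhgc4* therefore had a peak at the start, and *Pcdhac1* and *Pcdhgc5* did not. The nearest call to the start of *Pcdhgc5*, whose protein binds a GABA receptor subunit, lay 3142 bp inside the gene in UK5099 and vehicle and 3110 bp inside it in lactate, in an intron.

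Long stretches of variable exons held no call at all. The last peak before the alpha cluster, at 36801920 in all 3 libraries, and the *Pcdhac2* peak were 342 kb apart in each library, and the starts of the other 13 alpha genes, *Pcdha1* to *Pcdha12* and *Pcdhac1*, lay between them. Peaks are numbered along the genome in the deposited table, and the 2 numbers followed each other directly, so no peak was called in between in any library. In gamma the starts of 13 genes, *Pcdhga1* to *Pcdhga9* with their interspersed B-type genes up to *Pcdhgb5*, lay in a stretch without a call of 86.2 kb in UK5099, 97.9 kb in lactate and 86.7 kb in vehicle. A further stretch before *Pcdhgc3* was 44.7 kb long with 1 gene start in UK5099, 54.8 kb with 3 in lactate and 64.1 kb with 5 in vehicle.

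The beta genes are not rows of the table used here, and only the peaks around them could be described. GENCODE M21 places 22 beta genes between 37264938 and 37524479. Between the last alpha peak and the promoter of *Taf7*, which encodes a subunit of the general transcription factor TFIID, no peak assigned to a listed gene was called over 495 kb in UK5099, 481 kb in lactate and 495 kb in vehicle. In lactate the peak numbers ran on without a gap, so no peak was called near any of the 22 beta starts. In UK5099 and in vehicle 1 number each was skipped, which leaves 1 called peak per library in that stretch that no listed gene claims and whose position was not analysed here. Of all peak numbers 25.8% in UK5099, 25.1% in lactate and 24.8% in vehicle were listed for no gene.

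The heights of the genes themselves were compared next, which asks whether accessibility of the clusters differed with the inhibitor or with lactate. The alpha row, shared by all 14 alpha genes from *Pcdha1* to *Pcdhac2*, averaged 3 regions and had a height of 20.0 in UK5099, 26.4 in lactate and 22.2 in vehicle. Its mean of 22.9 was above that of only 10.1% of all genes. UK5099 was thus the lowest of the libraries at alpha, at 0.900-fold of vehicle (0.648 to 1.24) and 0.780 times the median gene (0.561 to 1.07). Lactate was at 1.19-fold of vehicle (0.932 to 1.52), 1.01 times the median gene, and UK5099 was at 0.758-fold of lactate (0.555 to 1.02). Each of these intervals includes 1. Of the 3 regions, 1 was called in lactate alone among these libraries, which partly fixes the ratios of this row that involve lactate. Without that region lactate was at 1.06-fold of vehicle (0.811 to 1.38) and UK5099 at 0.855-fold of lactate (0.612 to 1.18).

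The gamma rows were higher than the alpha row in every library, and UK5099 was the highest library in each of them, narrowly so at *Pcdhgc5*. *Pcdhga1*, the first gamma gene, averaged 9 regions and had 50.9 in UK5099, 44.8 in lactate and 39.8 in vehicle. *Pcdhga2* stood for 15 genes with identical values, from *Pcdhga2* to *Pcdhgb7*, and had 55.3 in UK5099, 48.8 in lactate and 43.0 in vehicle over 8 regions. *Pcdhga11*, over 7 regions, had 59.6 in UK5099, 53.1 in lactate and 45.6 in vehicle. Over these 3 rows, a row that averaged fewer regions had the higher height in each library.

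*Pcdhgb8* and *Pcdhga12* shared 6 regions and had 67.7 in UK5099, 59.99 in lactate and 51.7 in vehicle. *Pcdhgc3* and *Pcdhgc4* shared 5 regions and had the highest mean height of the family, with 78.2 in UK5099, 70.4 in lactate and 60.1 in vehicle. *Pcdhgc5* kept 3 regions, with 69.3 in UK5099, 69.3 in lactate and 60.5 in vehicle. The rows of the C-type gamma genes stood near the middle of the table, with *Pcdhgc3* above 63.5% and *Pcdhgc5* above 60.3% of all genes in mean height. These ranks describe rows, not single genes. The *Pcdhgc5* row averages regions at the start of *Pcdhgc4*, in the intron of *Pcdhgc5* and downstream of the cluster. The row of *Pcdhgc4* includes the regions of *Pcdhgc3*.

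**Figure D1:**
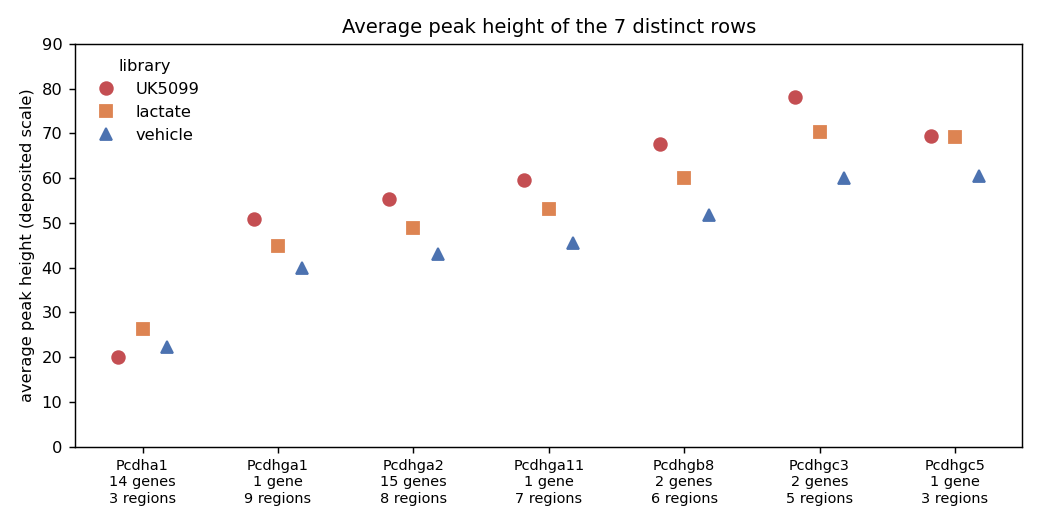
The plot of average peak heights shows the 7 distinct rows on the horizontal axis with their number of genes and regions, and the deposited average peak height on the vertical axis, 1 symbol per library. UK5099 is lowest for the alpha row, at 20.0, and highest for the gamma rows up to *Pcdhgc3*, at 78.2.

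None of the 7 distinct rows was at 1.5-fold or more, or at 0.5-fold or less, of vehicle in UK5099, limits that 9.05% and 1.36% of all genes passed. In UK5099 the gamma rows from *Pcdhga1* to *Pcdhgc3* were at 1.28-fold to 1.31-fold of vehicle. *Pcdhgb8* was highest at 1.31-fold (1.15 to 1.49), which is 1.13 times the median gene (0.994 to 1.29), and *Pcdhga11* was at 1.31-fold (1.15 to 1.49) and *Pcdhgc3* at 1.30-fold (1.14 to 1.49). *Pcdhgc5* was the lowest gamma row at 1.15-fold (0.957 to 1.37), which is 0.992 times the median gene, and *Pcdhga1* and *Pcdhga2* followed at 1.28-fold and 1.29-fold. The median over the 7 rows was 1.29-fold, beside 1.15-fold for all genes. With each of the 12 regions counted once, the summed height was at 1.22-fold (1.09 to 1.36). Intervals of the gamma rows except *Pcdhgc5* exclude 1, but every one of them includes the median gene, and these rows overlap in nearly all of their regions and are not separate measurements.

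In lactate the rows lay close together, and the alpha row among them includes the region called in lactate alone. No row passed a limit, against 6.07% of all genes past the upper limit and 0.513% past the lower. The ratios to vehicle ran between 1.12-fold at *Pcdhga1* (1.01 to 1.25) and 1.19-fold at the alpha row, with *Pcdhgc3* at 1.17-fold (1.05 to 1.31), *Pcdhga11* at 1.17-fold, *Pcdhgb8* at 1.16-fold, *Pcdhgc5* at 1.14-fold and *Pcdhga2* at 1.14-fold. All 7 rows were above vehicle on the deposited scale. After division by the median gene the 6 gamma rows lay slightly below 1. *Pcdhga1* was at 0.956 times the median gene (0.862 to 1.06) and *Pcdhgc3* at 0.996 times (0.889 to 1.12). All 6 of these intervals include 1, and the rows share regions with each other, so no decrease is read from them. The median of 1.16-fold stood beside 1.18-fold for all genes.

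UK5099 was also set directly against lactate, which leaves out the vehicle library that the comparisons above share. Here too 0 of 7 rows passed a limit, while 3.71% of all genes passed the upper and 1.43% the lower. The gamma rows up to *Pcdhgc3* were at 1.11-fold to 1.14-fold of lactate, highest at *Pcdhga1* with 1.14-fold (1.01 to 1.27), and *Pcdhgc5* was level with lactate at a ratio of 1.001 (0.845 to 1.18). Relative to the median gene *Pcdhga1* was at 1.16 (1.03 to 1.30) and *Pcdhgc3* at 1.13 (0.998 to 1.28). These rows share regions and are not separate measurements. Without the 2 regions of *Pcdhgc3* described below, a choice made after the values were seen, the other 7 gamma regions were at 1.06-fold of lactate (0.915 to 1.23). The median over the 7 rows was 1.12-fold, beside 0.983-fold for all genes. With each of the 12 regions counted once, the summed height was at 1.07-fold of lactate (0.964 to 1.19).

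Because the rows are nested, the regions that a row holds and the next does not can be read from the difference of their sums. This gave 8 units of 1 to 3 regions, and in every library each unit came out as a whole number of stacked reads within 0.05. A region that the noncoding gene *3222401L13Rik* lists alone, and that *Pcdhga1* alone among the family lists, served as a check. Its height by difference was 16 in UK5099, 12.7 in lactate and 14.9 in vehicle, within 0.008 of the height listed for *3222401L13Rik* itself.

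The 2 regions of *Pcdhgc3*, at its start and within its first exon 2438 to 2518 bp from the start, differed most clearly. Together they had a height of 183 in UK5099, 144 in lactate and 119 in vehicle, from 183, 306 and 207 stacked reads in the same order. UK5099 was at 1.54-fold of vehicle (1.25 to 1.89), which is 1.33 times the median gene (1.09 to 1.63), and at 1.27-fold of lactate (1.05 to 1.53). Lactate was at 1.21-fold of vehicle (1.01 to 1.45), 1.03 times the median gene (0.861 to 1.24). In UK5099, 1 of the 2 regions alone reached 151 and the other 32, and the deposited values do not show which is which.

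This pair made up 40.0% of the summed gamma height in UK5099, 35.7% in lactate and 33.2% in vehicle. Over all 9 gamma regions UK5099 was at 1.28-fold of vehicle (1.13 to 1.44). Without the *Pcdhgc3* pair, a choice made after the values were seen, the other 7 regions were at 1.15-fold in UK5099 (0.982 to 1.34), close to the median gene, and at 1.08-fold in lactate (0.9503 to 1.23). The last 3 gamma regions, at the start of *Pcdhgc4*, in the intron of *Pcdhgc5* and downstream of the cluster in *Diaph1*, had a summed height of 208 in UK5099, 208 in lactate and 182 in vehicle. They were at 1.15-fold of vehicle in UK5099 (0.957 to 1.37) and 1.14-fold in lactate (0.988 to 1.33), and each ratio lies at the median gene within its interval.

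**Figure D2:**
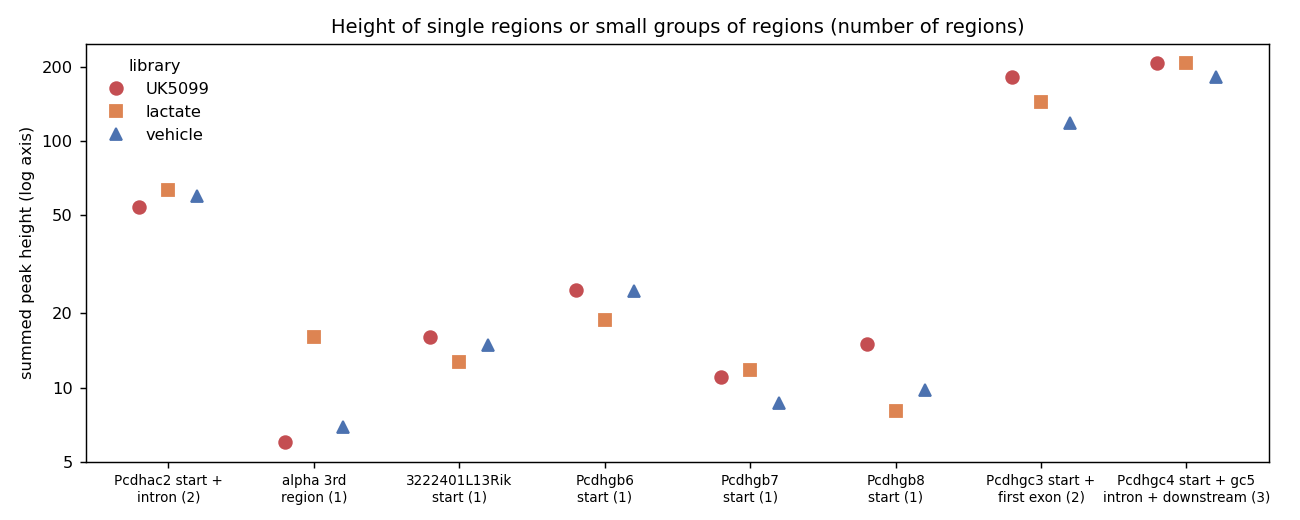
The plot of region heights gives the summed peak height on a log axis for the 8 units, with the number of regions in brackets and 1 symbol per library. The pair at *Pcdhgc3* runs in the order UK5099, lactate, vehicle, at 183, 144 and 119, and the weak starts of *Pcdhgb7* and *Pcdhgb8* lie between 8.01 and 15.

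The weak gamma starts rested on few reads. *Pcdhgb6* had a height of 25 in UK5099, 18.8 in lactate and 24.7 in vehicle, and lactate was at 0.762-fold of vehicle (0.483 to 1.20). *Pcdhgb7*, whose peak was called in lactate, had 11 in UK5099, 11.8 in lactate and 8.62 in vehicle, so the library with the call hardly exceeded UK5099. *Pcdhgb8*, whose peak was called in UK5099, had 15 in UK5099, 8.01 in lactate and 9.77 in vehicle. UK5099 was there at 1.54-fold of vehicle (0.714 to 3.27) and 1.87-fold of lactate (0.871 to 3.99), from 15 stacked reads in UK5099, 17 in lactate and 17 in vehicle, and each of these intervals includes 1.

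Of the alpha regions, the pair at the start and in the following intron of *Pcdhac2* had a summed height of 54.0 in UK5099, 63.1 in lactate and 59.8 in vehicle. UK5099 was at 0.903-fold of vehicle (0.638 to 1.27) and lactate at 1.06-fold (0.811 to 1.38). In lactate 1 of these 2 regions reached 42.9 and the other 20.3. The third alpha region, 19071 bp after the start of *Pcdhac2* at 37163040 and inside the antisense transcript *Gm10544*, was called in lactate and not in UK5099 or vehicle. It is among the regions only through its call in lactate, so a ratio that favours lactate is partly fixed by that selection and is given as a description. It had a height of 6 in UK5099, 16.02 in lactate and 6.90 in vehicle, from 6, 34 and 12 stacked reads in that order. Lactate was at 2.32-fold of vehicle (1.17 to 4.93), 1.98 times the median gene (0.998 to 4.19), and UK5099 was at 0.375-fold of lactate (0.129 to 0.903).

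**Figure D3:**
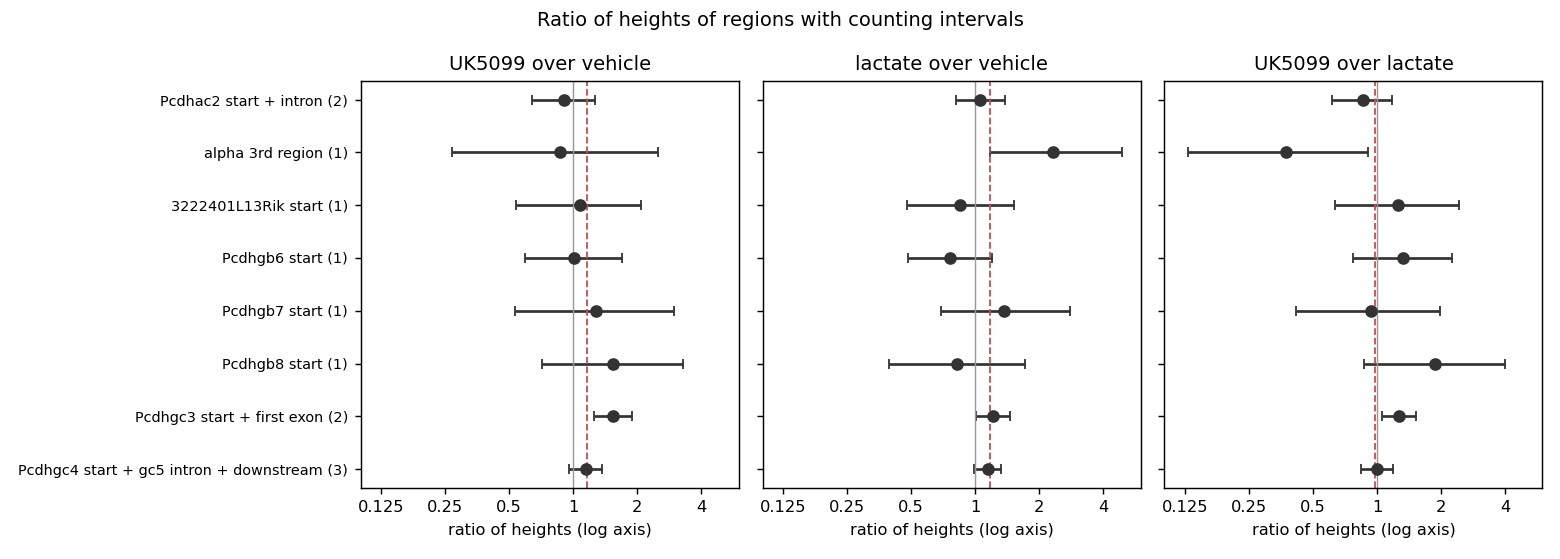
The plot of region ratios shows each unit's ratio of heights on a log axis with its 95% counting interval, for UK5099 over vehicle, lactate over vehicle and UK5099 over lactate, with a grey line at 1 and a dashed red line at the median gene. The *Pcdhgc3* pair is the only unit whose interval for UK5099 over vehicle, 1.25 to 1.89, lies wholly above both lines.

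Among these 3 libraries, 3 of the 8 units were called in 1 library alone, *Pcdhgb8* in UK5099 and *Pcdhgb7* and the third alpha region in lactate. They are in the set through that library, and nothing is read from a ratio in its favour. Of the 5 units called in at least 2 libraries, a restriction chosen after seeing the data, the *Pcdhgc3* pair passed 1.5-fold in UK5099 over vehicle, and 0 passed a limit in lactate over vehicle or in UK5099 over lactate. With all 8 units the counts were 2 in UK5099 over vehicle, *Pcdhgb8* added, 1 in lactate over vehicle, the third alpha region, and 2 in UK5099 over lactate, *Pcdhgb8* above and the third alpha region below. Among distinct genes with 1 region, 13.1% passed the upper and 3.76% the lower limit in UK5099 over vehicle, 10.7% and 1.43% in lactate over vehicle, and 8.13% and 3.76% in UK5099 over lactate. Among those with a mean height under 20, a level chosen after the values were seen, the shares were 25.2% and 11.9%, 20.2% and 5.83%, and 21.4% and 10.7% in the same order of comparisons. *Pcdhgb8* and the third alpha region both had mean heights under 20. The shares for 1 region do not match the *Pcdhgc3* pair, which sums 2 regions and has the largest of the 8 ratios in UK5099 over vehicle. Of all genes, whatever their number of regions, 9.05% passed 1.5-fold in that comparison. After division by the median gene no unit passed a limit in UK5099 over vehicle, the *Pcdhgc3* pair included. No share of all genes after that division is given beside this.

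Other genes of the family and of its regulation were described from lists. Of 12 non-clustered protocadherins, which stand alone in the genome and share no constant exons, 9 were in the table, and 2 passed 1.5-fold in UK5099 and none was at 0.5-fold or less, beside 9.05% and 1.36% of all genes. *Pcdh12*, best known from endothelium, had 47.5 in UK5099 and 23.3 in vehicle, a ratio of 2.04 (1.501 to 2.78), and *Pcdh17* had 64.0 in UK5099 and 40.2 in vehicle, a ratio of 1.59 (1.12 to 2.27). *Pcdh1*, an epithelial adhesion gene, was the lowest with 65.3 in UK5099 and 72.6 in vehicle, at 0.900-fold (0.802 to 1.01). In lactate, where 6.07% of all genes did, 2 of 9 passed 1.5-fold, *Pcdh8* with 45.0 in lactate and 23.9 in vehicle, at 1.89-fold (1.45 to 2.47), and *Pcdh12* with 35.8 in lactate, at 1.54-fold (1.17 to 2.04), whereas *Pcdh9* was lowest at 1.05-fold. After division by the median gene 1 of 9 passed in UK5099 and 1 of 9 in lactate. That division lowers the ratio over vehicle of every gene. The share of all genes past a limit after it is not given here, so nothing is read from these counts. Their median was 1.21-fold of vehicle in UK5099, beside 1.29-fold for the clustered genes, and 1.37-fold in lactate, beside 1.16-fold. The medians of the clustered genes count shared regions repeatedly. With each of the 12 regions counted once, the summed height of the clusters was at 1.22-fold of vehicle in UK5099 (1.09 to 1.36). In lactate it was at 1.13-fold (1.03 to 1.25). Between the treatments *Pcdh12* was highest at 1.33-fold of lactate (1.02 to 1.73) and *Pcdh8* lowest at 0.622-fold (0.453 to 0.842).

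Of 18 genes for proteins that act on protocadherin promoters and loops, 17 were in the table, with medians of 1.22-fold in UK5099 and 1.17-fold in lactate. *Nipbl*, which loads cohesin, had 112 in UK5099 and 70.1 in vehicle, at 1.60-fold (1.22 to 2.08), and the cohesin regulator *Pds5a* had 48.3 in UK5099 and 32.2 in vehicle, at 1.502-fold (1.19 to 1.89). These 2 of 17 passed 1.5-fold in UK5099, beside 9.05% of all genes, and none was at 0.5-fold or less. *Ctcf*, which encodes the factor that marks active protocadherin promoters, had 83.0 in UK5099, 54.7 in lactate and 55.7 in vehicle, so UK5099 was at 1.49-fold of vehicle (1.10 to 2.02) and 1.52-fold of lactate (1.13 to 2.03). *Ctcf* was the 1 of 17 past 1.5-fold of lactate, beside 3.71% of all genes. The cohesin subunit gene *Stag2* was the 1 of 17 past 1.5-fold in lactate over vehicle, beside 6.07% of all genes. It had 85.7 in lactate and 55.7 in vehicle, at 1.54-fold (1.29 to 1.84), and it was lowest between the treatments at 0.764-fold. *Dnmt3a*, a DNA methyltransferase gene, was lowest in both, with 28.9 in UK5099, 30.3 in lactate and 35.1 in vehicle, at 0.821-fold (0.691 to 0.973) in UK5099 and 0.862-fold (0.753 to 0.986) in lactate. After division by the median gene 0 of 17 regulator genes passed a limit in either treatment over vehicle, so the calls of *Nipbl*, *Pds5a* and *Stag2* ended. With a pseudocount of 5.63 that of *Ctcf* over lactate ended. No share of all genes under these settings is given beside them.

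Of 17 genes for proteins that act with protocadherins at the membrane, 16 were in the table, with medians of 1.25-fold in UK5099 and 1.18-fold in lactate. *Rac1*, a small GTPase that drives actin branching, was the 1 gene past 1.5-fold in UK5099, with 126 in UK5099 and 82.6 in vehicle, at 1.53-fold (1.33 to 1.76), and none was at 0.5-fold or less, beside 9.05% and 1.36% of all genes. The call of *Rac1* ended after division by the median gene and with a pseudocount of 5.63, settings for which no share of all genes is given. In lactate no gene passed a limit, beside 6.07% of all genes past the upper and 0.513% past the lower. *Nckap1* of the WAVE complex had 87.0 in UK5099, 63.1 in lactate and 90.8 in vehicle. It was lowest in both treatments, at 0.958-fold (0.729 to 1.25) in UK5099 and 0.695-fold (0.548 to 0.881) in lactate, and highest between them at 1.38-fold of lactate, while *Cyfip2*, of the same complex, was lowest there at 0.807-fold.

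The 35 other genes within 500 kb of the clusters had a median of 1.19-fold in UK5099 and 1.14-fold in lactate. The nearest before alpha, the vault RNA gene *Vaultrc5*, had 134.5 in UK5099, 135.9 in lactate and 114.1 in vehicle, at 1.18-fold (1.01 to 1.38) and 1.19-fold (1.05 to 1.36) of vehicle. Between the clusters *Taf7* and *Slc25a2*, a mitochondrial ornithine transporter gene, shared 1 region with 100 in UK5099, 93.8 in lactate and 83.3 in vehicle, at 1.20-fold (0.921 to 1.56) and 1.13-fold (0.904 to 1.40). The nearest after gamma, the formin gene *Diaph1* listed as *Diap1*, which shares 1 region with the gamma genes, had 67.4 in UK5099, 62.5 in lactate and 49.0 in vehicle, at 1.38-fold (1.24 to 1.52) and 1.28-fold (1.17 to 1.39). Past 1.5-fold were 2 neighbours in UK5099, *Pcdh12* and *Gnpda1*, and 5 in lactate, *Wdr55* and *Dnd1* with 1 shared region, *Gm10544*, *Pcdh12* and *Gnpda1*, and none was at 0.5-fold or less of vehicle. The shares of all genes past 1.5-fold were 9.05% and 6.07%, and those at 0.5-fold or less were 1.36% and 0.513%. *Pcdh12* and *Pcdh1* are the same rows as in the list of non-clustered protocadherins. *Gm10544* is the third alpha region, called in lactate alone among these libraries, so nothing is read from its place in the lactate counts. With identical rows counted once, 2 of 31 neighbours passed in UK5099 and 4 of 31 in lactate. With all 35 rows the lactate count was 1, *Gm10544*, after division by the median gene and 3 with a pseudocount of 5.63. Shares of all genes under these settings are not given, so these counts stand alone. The lowest neighbour was *E230025N22Rik* in UK5099, at 0.803-fold (0.712 to 0.905), and *Rell2* in lactate, at 0.837-fold (0.683 to 1.03). Between the treatments *Rell2* was highest at 1.61-fold of lactate (1.29 to 1.998) and was the 1 neighbour past 1.5-fold, beside 3.71% of all genes. *Gm10544*, the third alpha region, was the 1 neighbour at or below 0.5-fold, beside 1.43% of all genes, and its call in lactate partly fixes that ratio.

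**Figure D4:**
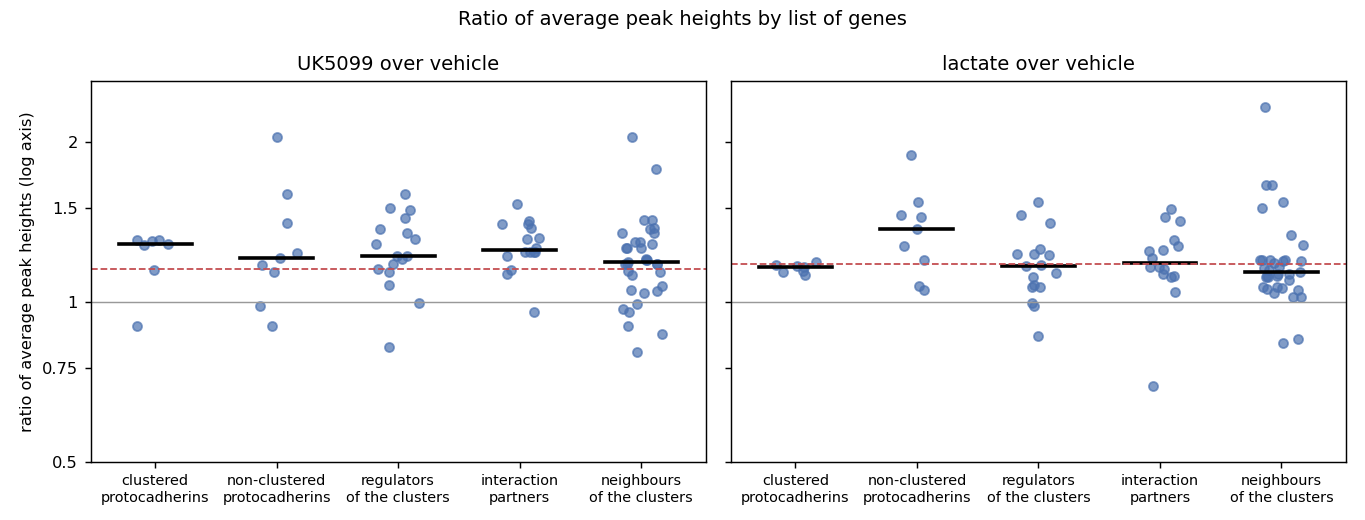
The plot of ratios by list shows 1 point per gene (distinct rows for the clustered genes) and a black bar at the median of each list on a log axis, for UK5099 over vehicle and lactate over vehicle, with the median gene as a dashed red line and 1 as a grey line. In UK5099 the alpha row is at 0.900 (0.648 to 1.24) and the gamma rows, which share regions with each other, lie between 1.15 and 1.31. The counting interval of the alpha row overlaps that of each gamma row. In lactate the 7 rows lie between 1.12 and 1.19, and the alpha row includes a region called in lactate alone.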

How the data were processed

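ATAC-seq was performed on 3 libraries, 1 per group, and samples were grouped by the treatment in their labels. Per the study's methods, reads were aligned with BWA, duplicates and ambiguous reads were removed, and reads were extended and stacked in small bins. Peaks were called with MACS, per library and without a control, at mm10. The submitters' notes name MACS3 and the methods an earlier version. For a transposase shift of the reads, the sources used here name none. The authors deposited, as signal, the average peak height (coverage) per gene over merged regions; merging also used peaks of a library not analysed here. The authors deposited other columns too, a flag per library for a called peak, the number of merged regions and the highest peak height. The scaling of the heights is not stated in the methods or labels.

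Ratios were taken without a pseudocount among genes above 0, with the study's limits of 1.5 and 0.5. The median gene had 154 stacked reads in UK5099, 330 in lactate and 233 in vehicle, and at least 99.99% of values were whole within 0.05 reads. Intervals cover counting error only, and overlapping reads narrow them further. Stacked reads are coverage at a maximum, not counts of fragments, so no count test was run.

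Regions were linked over 1000 bp and matched the deposited region count in all 36 rows. Peak positions follow from gene start and deposited distance. Exons and beta genes came from GENCODE M21 on the same build. Named were the C-type genes, in each cluster the highest row and the 3 highest and 3 lowest ratios, and in each list the extremes, genes past a limit and, for neighbours, the nearest and those inside. The value of 1 gene that this rule names is not reported here. Members and lists were chosen with earlier results of these data known. Alternatives were 2 pseudocounts, a height filter, 2 scalings, every row counted, regions counted once and other limits. Ratios and intervals were tested on simulated independent counts, which is the model that the intervals assume. That check cannot show how the intervals cover the overlapping reads of these data. Python 3.11.15, pandas 2.3.3 and scipy 1.17.1 were used.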

Additional observations from a re-analysis of the deposited data

How the results depend on the processing

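Scaling moved the medians over vehicle, which it divides by about 1.15 in UK5099 and 1.18 in lactate, and counting regions moved the counts. The median of the 7 rows in UK5099 over vehicle was 1.29-fold as reported, 1.11-fold with the median of ratios, 1.11-fold with equal totals and 1.12-fold with the median height of 56.3 as pseudocount. In lactate over vehicle it was 1.16-fold as reported and 0.986-fold and 0.987-fold with these scalings. With the median of ratios the interaction partners stood at 1.08-fold in UK5099 and 1.01-fold in lactate, and in lactate the non-clustered protocadherins at 1.17-fold, the regulators at 0.994-fold and the neighbours at 0.965-fold. With regions counted once, 2 of 8 units passed a limit in UK5099 over vehicle, 1 in lactate over vehicle and 2 in UK5099 over lactate, where no row did. With the median of ratios 0 units passed in UK5099 over vehicle, and among the 4 units with a mean height of 20 or more per region 1 passed in UK5099 over vehicle and 0 in the other comparisons, settings chosen after seeing the data. Among the 5 units called in at least 2 libraries, also chosen then, 1 passed in UK5099 over vehicle and 0 in the other comparisons. For counts after scaling or with a pseudocount, no share of all genes treated alike is given. The other 37 of 45 alternative values for the clustered genes stayed within the counting interval or at a count of 0. Depth limits the regions with a mean height under 20, which rest on 6 to 34 stacked reads. No paired analysis was possible because each group held 1 library.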
